A study of Mus musculus with 24 samples.

Results

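Hippocampal and hypothalamic tissue of male C57BL/6J mice aged 15 months was compared by sequencing of polyadenylated RNA, with 3 libraries from each region. These 6 libraries belong to a series of 24 samples, which also holds mRNA of both regions at 2 months and small RNA of both regions at both ages. The series was made to follow RNA expression in these regions with age, and the question addressed here is which genes set the regions apart in the older mice. The labels name no engineered allele and no treatment, and they number the mice of both regions 4, 5 and 6. Wherever 3 values are given for a region, they stand in that order. The total of expected counts was 26234262, 25630854 and 26110924 in the hippocampal libraries and 27157808, 26063804 and 25943201 in the hypothalamic ones, and from 16620 to 16844 genes per library had at least 1 read.

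The hippocampus is a part of the medial cortex built mostly of excitatory granule and pyramidal neurons, which use glutamate and carry dense spine synapses involved in memory. The hypothalamus is a collection of small nuclei below the thalamus, whose neurons make peptide hormones and neuropeptides that govern feeding, sleep, body fluids, growth and reproduction. The regions derive from separate parts of the embryonic forebrain, and adult neurons keep many of the transcription factors that marked their origin.

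A gene was called where the fold change between regions exceeded 1.5 and the p-value of edgeR's quasi-likelihood test, adjusted by the Benjamini-Hochberg method over all genes tested, was under 0.05. Positive log2 fold changes mean a higher level in hippocampus. Each is given with a standard error derived from that test, which was fitted across all genes with 3 mice per region and without pairing. Levels are compared between libraries as CPM, which adjust each count for sequencing depth and by the library's TMM normalisation factor. Levels are compared between genes as FPKM, which scale for depth and transcript length without that factor. For some genes the mean FPKM of both regions are given. Among 14956 genes tested, 2605 (17.4%) were called. Hippocampus had the higher level in 1360 of them (9.09% of all genes tested) and hypothalamus in 1245 (8.32%). Calls in the lists below are to be read against these shares. A list share near them is no result about the list. Which region had more calls changed with the processing, with 1156 against 1561 for total counts and 1075 against 1334 for limma on log2(FPKM + 0.1). A fold change over 4 was found for 221 genes (1.48%) higher in hippocampus and 190 (1.27%) higher in hypothalamus. The median log2 fold change was 1.06 among the genes called higher in hippocampus, -1.03 among those called higher in hypothalamus and -0.0029 over all genes tested. The CPM values of the regions did not overlap for 8224 genes (55.0%), and 2593 of the 2605 genes called were among them. Across the genes tested, which are not independent replicates, log2 levels correlated at 0.990 to 0.994 between libraries of a region and at 0.943 to 0.976 between libraries of different regions.

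**Figure D1:**
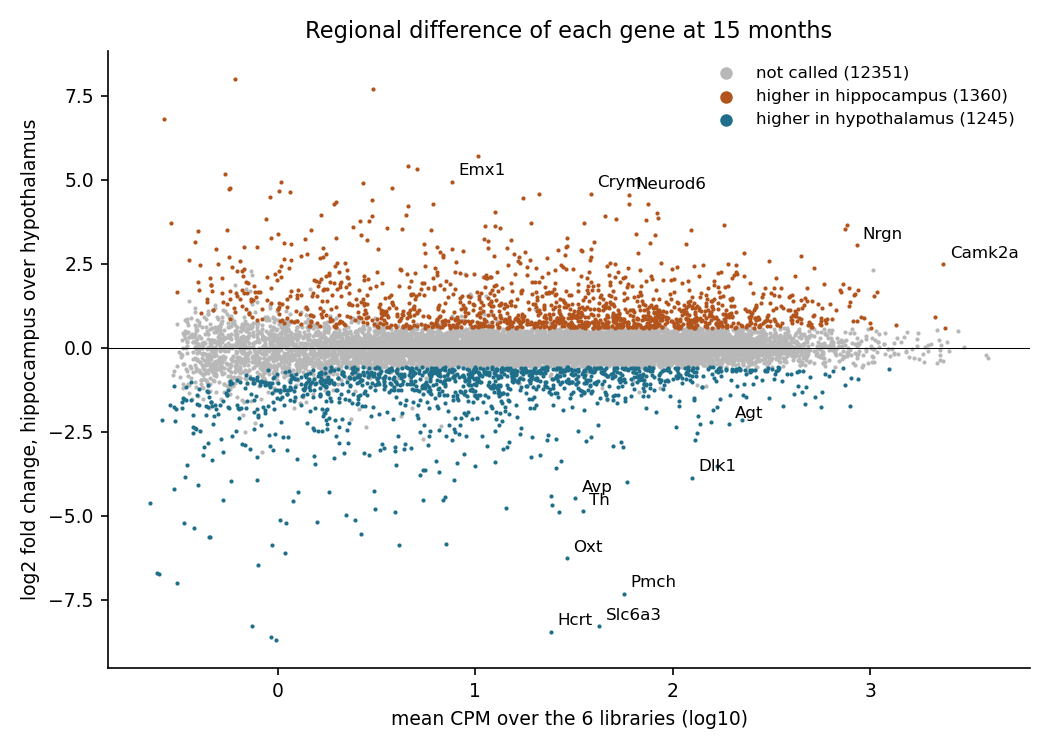
Each point is a gene tested at 15 months. The horizontal axis gives the mean CPM over the 6 libraries on a log10 scale and the vertical axis the log2 fold change of hippocampus over hypothalamus. Colours mark the 1360 genes called higher in hippocampus, the 1245 called higher in hypothalamus and the genes not called, and the lowest labelled point is Hcrt at -8.46.

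Genes known to define each region are described first. Emx1, a transcription factor of the embryonic cortex, had 17.7, 16.1 and 10.7 CPM in hippocampus and 0.285, 0.819 and 0.338 CPM in hypothalamus, a log2 fold change of 4.94 ± 0.35 (adjusted p = 0.000104). Tbr1, a factor of cortical glutamate neurons, had 132, 136 and 75.6 CPM against 2.85, 10.4 and 4.66 CPM. Otp, a factor needed for hypothalamic neuroendocrine neurons, had 0.278, 0.0404 and 0.0776 CPM in hippocampus and 8.57, 5.88 and 9.89 CPM in hypothalamus (-5.89 ± 0.43, adjusted p = 0.000112). For Emx1, Tbr1 and Otp, every library of the labelled region thus lay well above every library of the other region. These genes were chosen after values were seen, so this describes the libraries and is no independent test of the labels. Six6, a factor of the ventral forebrain, had 0 counts in the hippocampal libraries together and 161 in the hypothalamic ones, at least 49.8-fold higher against a floor of 3 counts over the 3 libraries of a region. Prox1, which defines dentate granule cells, had 33.7, 25.5 and 35.04 CPM in hippocampus and 23.7, 33.1 and 29.6 CPM in hypothalamus and was not called (0.13 ± 0.15, adjusted p = 0.538). Hypothalamic library 5 had more Tbr1 than the other hypothalamic libraries. It also had the highest hypothalamic sums of several lists given below. These were pallial factors (778, 948 and 744 CPM), excitatory synapse (7136.4, 8852.5 and 7120.5 CPM), CA1 (247, 281 and 234 CPM) and immediate early genes (249, 346 and 257 CPM). The neocortical sum was lowest in library 5, at 1013, 975 and 1019 CPM. The part of cortical tissue in this library was not tested.

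Neuropeptide genes were among the largest differences toward hypothalamus. Of 49 neuropeptide and peptide-related genes, 42 were tested, of which 22 were called higher in hypothalamus, 8 higher in hippocampus and 12 not called. The median log2 fold change of the 42 was -1.55. Hcrt encodes the orexin precursor of the lateral hypothalamus (NCBI gene 15171, chr11:100761693-100762931 of mouse GRCm38). It had 0.199, 0.0404 and 0.155 CPM in hippocampus and 41.3, 49.8 and 53.1 CPM in hypothalamus. The hypothalamic libraries lay close together, and the hippocampal values rested on 5, 1 and 4 reads. The log2 fold change was -8.46 ± 0.24 (adjusted p = 1.5e-05). Pmch encodes melanin-concentrating hormone, made by other neurons of the same area (NCBI gene 110312, chr10:88091072-88092374). It had 0.914, 0.809 and 0.388 CPM against 80.8, 127 and 131 CPM, with hypothalamic library 4 below the other hypothalamic libraries (-7.32 ± 0.30, adjusted p = 5.98e-05). With a mean of 170.2 FPKM, Pmch was, after Agt at 183 FPKM, the gene with the highest level per length in hypothalamus among those called with a fold change over 4 toward that region.

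Oxt and Avp encode oxytocin and vasopressin, the hormones that hypothalamic neurons release into the blood from the posterior pituitary. Oxt (NCBI gene 18429, chr2:130574519-130577054) had 1.11, 0.405 and 0.699 CPM in hippocampus and 43.9, 59.7 and 69.03 CPM in hypothalamus. Avp (NCBI gene 11998, chr2:130580620-130582588) had 3.46, 2.35 and 2.48 CPM and 41.5, 59.6 and 83.7 CPM. In both genes hypothalamic library 4 was lowest and library 6 highest, and neither gene's regions overlapped. The log2 fold changes were -6.27 ± 0.29 for Oxt (adjusted p = 5.98e-05) and -4.48 ± 0.30 for Avp (adjusted p = 9.37e-05). The genes are neighbours on chromosome 2, and the annotated ends face each other at a distance of 3.57 kb. Their promoters are shown because these neighbouring genes moved together, from 250 bases before to 50 after an annotated start, after RefSeq on GRCm38.p6. Oxt lies on the plus strand (chr2:130575919-130576218) and Avp on the minus strand (chr2:130582539-130582838). Capitals mark AGGTCA, a half-site of nuclear receptors, and CAGATG, an E-box, on either strand.
Oxt: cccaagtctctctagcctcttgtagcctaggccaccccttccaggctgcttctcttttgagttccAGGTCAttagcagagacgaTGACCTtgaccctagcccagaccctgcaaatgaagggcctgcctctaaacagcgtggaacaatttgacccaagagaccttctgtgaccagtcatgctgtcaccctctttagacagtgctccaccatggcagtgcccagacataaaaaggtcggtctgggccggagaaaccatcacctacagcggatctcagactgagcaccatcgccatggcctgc
Avp: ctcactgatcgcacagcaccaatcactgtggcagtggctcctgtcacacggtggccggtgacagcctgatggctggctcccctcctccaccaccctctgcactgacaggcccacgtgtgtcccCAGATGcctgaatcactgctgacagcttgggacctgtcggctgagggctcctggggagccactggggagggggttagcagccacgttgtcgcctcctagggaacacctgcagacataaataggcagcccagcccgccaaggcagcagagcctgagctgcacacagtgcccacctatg
The Oxt window held AGGTCA at 2 places and the Avp window CAGATG at 1. Among all 32851 promoter windows of the table, 16.3% held AGGTCA and 17.2% CAGATG. These letters are a description of the windows, and no binding was measured.

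Other peptides that act on feeding and hormone release were also higher in hypothalamus. Pomc encodes the precursor of melanocortins and had 0.715, 0.809 and 0.931 CPM against 9.96, 11.4 and 9.47 CPM (-3.64 ± 0.16, adjusted p = 5.98e-05). Agrp, whose product opposes melanocortins at their receptor, was lower in level, at 0.159, 0.121 and 0.0776 CPM and 0.712, 0.596 and 0.639 CPM (-2.40 ± 0.39, adjusted p = 0.00236). Both sets of hypothalamic libraries lay above every hippocampal library. Scg2, which encodes a granin of secretory vesicles, was abundant in both regions, at a mean of 105 FPKM in hippocampus and 279 FPKM in hypothalamus (-1.33 ± 0.08, adjusted p = 7.43e-05). Npvf had 0 counts in hippocampus and 50 in hypothalamus, at least 15.5-fold higher. Not every defining peptide passed. Crh, the releasing hormone of the stress axis, had 5.01, 5.22 and 3.53 CPM and 3.10, 5.14 and 3.98 CPM (0.17 ± 0.23, adjusted p = 0.58). Gnrh1, the releasing hormone of the gonadal axis, had 0.159, 0.283 and 0.155 CPM and 0.391, 0.782 and 0.376 CPM (-1.36 ± 0.49, adjusted p = 0.0582), and it was called when libraries were scaled by total counts (-1.44, adjusted p = 0.044) and by limma on log2(FPKM + 0.1) (-1.21, adjusted p = 0.0223). Kiss1 had too few counts to be tested.

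The 8 neuropeptide genes higher in hippocampus include peptides of cortical interneurons. Cort, which encodes cortistatin, had 4.97, 6.84 and 3.92 CPM against 0.107, 0.372 and 0.0376 CPM (4.89 ± 0.50, adjusted p = 0.000311). Npy, made in hippocampal interneurons as well as in hypothalamic feeding neurons, had 84.3, 95.3 and 56.7 CPM in hippocampus and 14.9, 15.2 and 13.9 CPM in hypothalamus (2.43 ± 0.18, adjusted p = 0.000119). The hippocampal libraries all lay above the hypothalamic ones. Vip followed at a log2 fold change of 2.53 ± 0.32, Cck at 1.84 ± 0.19 and Sst at 1.13 ± 0.13. Cck was the most abundant gene of the list, with a mean of 457 FPKM in hippocampus and 134 FPKM in hypothalamus. Among 15 genes of cortical-type interneurons, which share some of these peptides, 8 were called higher in hippocampus and 1 higher in hypothalamus, with a median log2 fold change of 0.87. The exception was Calb2, the calcium-binding protein calretinin, with 32.7, 18.4 and 65.6 CPM in hippocampus and 218, 226 and 231 CPM in hypothalamus (-2.53 ± 0.39, adjusted p = 0.00183). In these bulk libraries, fewer cells of a type and less RNA per cell cannot be told apart.

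**Figure D2:**
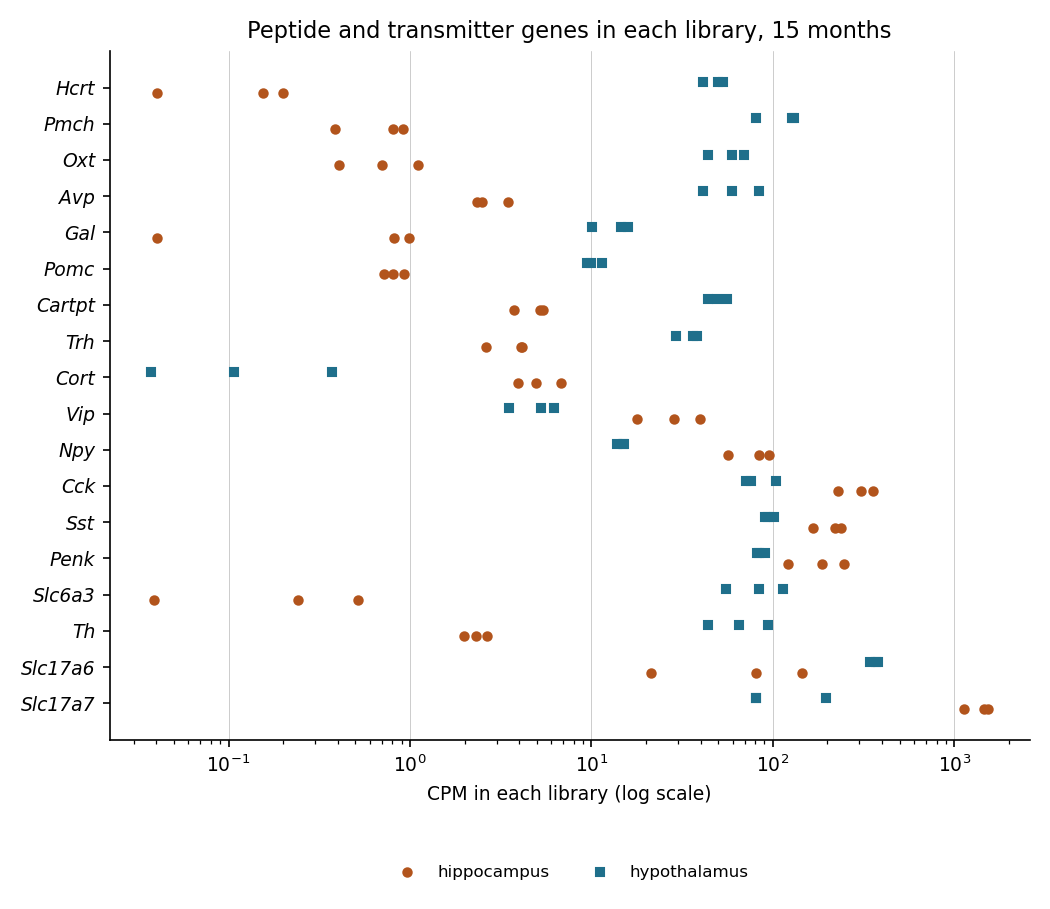
Points give the CPM of each library on a log scale for genes of peptides and of transmitter synthesis and transport, with circles for the 3 hippocampal and squares for the 3 hypothalamic libraries. Hcrt, Pmch, Oxt and Avp lie to the right in hypothalamus, and Cort, Vip, Npy, Cck, Sst, Penk and Slc17a7 in hippocampus.

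Receptors of peptides were called in both directions. Of 54 tested, 25 were called higher in hypothalamus and 9 higher in hippocampus, with a median log2 fold change of -0.58. Calcr, the calcitonin receptor, had 1.19, 0.0809 and 0.427 CPM and 12.6, 11.96 and 15.1 CPM (-4.53 ± 0.48, adjusted p = 0.000363). Ghsr, the ghrelin receptor, had a log2 fold change of -3.15 ± 0.29 and Brs3, a bombesin-family receptor tied to energy balance, -3.94 ± 0.59. The receptor for pituitary adenylate cyclase-activating peptide, Adcyap1r1, was far more abundant, at a mean of 60.2 FPKM in hypothalamus and 35.6 FPKM in hippocampus (-0.67 ± 0.08). Vipr1, a receptor of vasoactive intestinal peptide, was higher in hippocampus, at 25.1, 30.3 and 18.5 CPM against 2.03, 2.64 and 1.54 CPM (3.57 ± 0.25, adjusted p = 9.49e-05). Among 14 receptors of steroid and thyroid hormones, 4 (28.6%) were called higher in hypothalamus and 2 (14.3%) higher in hippocampus (median 0.09). Esr1, the estrogen receptor alpha, had 2.90, 2.83 and 2.72 CPM and 8.25, 7.82 and 9.81 CPM (-1.61 ± 0.13, adjusted p = 0.000147). The mineralocorticoid receptor gene Nr3c2 showed the opposite direction, with 66.5, 64.9 and 66.2 CPM and 26.2, 28.9 and 23.7 CPM (1.32 ± 0.08, adjusted p = 7.43e-05). Nr3c1, the glucocorticoid receptor, was not called (0.18 ± 0.05, adjusted p = 0.0301).

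Forebrain transcription factors separated the regions in both directions. Of 29 factors of hippocampus and pallium, the dorsal part of the forebrain from which cortex forms, 21 were called higher in hippocampus, 1 higher in hypothalamus and 7 not called, with a median log2 fold change of 1.40. Neurod6, a factor of pyramidal neurons, had 117, 131 and 97.8 CPM in hippocampus and 2.06, 11.7 and 1.13 CPM in hypothalamus (4.54 ± 0.63, adjusted p = 0.0011). Hypothalamic library 5 stood several times above libraries 4 and 6. Zbtb18 was the most abundant factor of the list, at 85.2 FPKM in hippocampus and 19.97 FPKM in hypothalamus. Npas3 was the factor called in the other direction (-0.75 ± 0.11, adjusted p = 0.00145). The summed level of the 29 factors was 3086, 2997 and 2379.8 CPM in hippocampus and 778, 948 and 744 CPM in hypothalamus, so the excess of library 5 over its group was smaller in the sum than in Neurod6.

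The Tbr1 promoter is shown as that of a factor marking cortical glutamate neurons, on the plus strand of GRCm38.p6 (chr2:61804203-61804502), with capitals on TAATTA, the core bound by many homeodomain proteins.
Tbr1: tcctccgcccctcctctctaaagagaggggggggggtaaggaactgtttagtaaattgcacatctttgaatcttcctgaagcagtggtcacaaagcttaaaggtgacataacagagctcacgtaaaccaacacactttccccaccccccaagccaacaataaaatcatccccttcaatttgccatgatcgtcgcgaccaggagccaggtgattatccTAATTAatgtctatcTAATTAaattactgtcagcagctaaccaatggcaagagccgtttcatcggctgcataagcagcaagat
TAATTA stood at 2 places of the Tbr1 window and in 5.29% of all windows. Among genes called higher in hippocampus, 1031 of 1360 had at least 1 window in the table, and TAATTA stood in 50 of their 1437 windows (3.48%). Among genes called higher in hypothalamus, 974 of 1245 had a window, and TAATTA stood in 45 of 1244 (3.62%). The shares for AGGTCA were 11.6% and 14.6%, and those for CAGATG 13.5% and 14.1%. For these 3 motifs, each share was below that of all windows, while some other motifs, given with the Th promoter, had higher shares. All windows include genes not tested here, so the sets compared are unlike.

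Of 47 hypothalamic transcription factors tested, 29 were called higher in hypothalamus and 3 higher in hippocampus, with a median log2 fold change of -2.62. Sim1, needed for the paraventricular nucleus, had 0.0795, 0.0404 and 0.194 CPM and 4.52, 4.47 and 6.62 CPM (-5.56 ± 0.39, adjusted p = 9.97e-05). Fezf1, a factor of the ventromedial nucleus, had 0.358, 0.0809 and 0.194 CPM and 4.80, 5.66 and 7.52 CPM (-4.79 ± 0.37, adjusted p = 0.000128). Nr5a1, the steroidogenic factor of the same nucleus, had a log2 fold change of -5.20 ± 0.38. The hypothalamic libraries lay together in each of these genes, and hippocampal counts were near 0. Foxa2 and Nkx2-4 had 0 counts in hippocampus and were at least 46.4-fold and 12.7-fold higher in hypothalamus. Nkx2-1, which specifies the hypothalamus in the embryo, had 1.19, 1.33 and 2.17 CPM and 7.26, 10.1 and 9.32 CPM (-2.50 ± 0.24, adjusted p = 0.000251). Meis2 had the highest level of the list, and it was higher in hippocampus, with a mean of 22.96 FPKM against 12.2 FPKM (adjusted p = 0.00453). Ovol2, a zinc-finger factor on neither list, had 455 counts in hippocampus and 2 in hypothalamus, a ratio of 245 with a 95% counting interval of 67.5 to 2031.

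**Figure D3:**
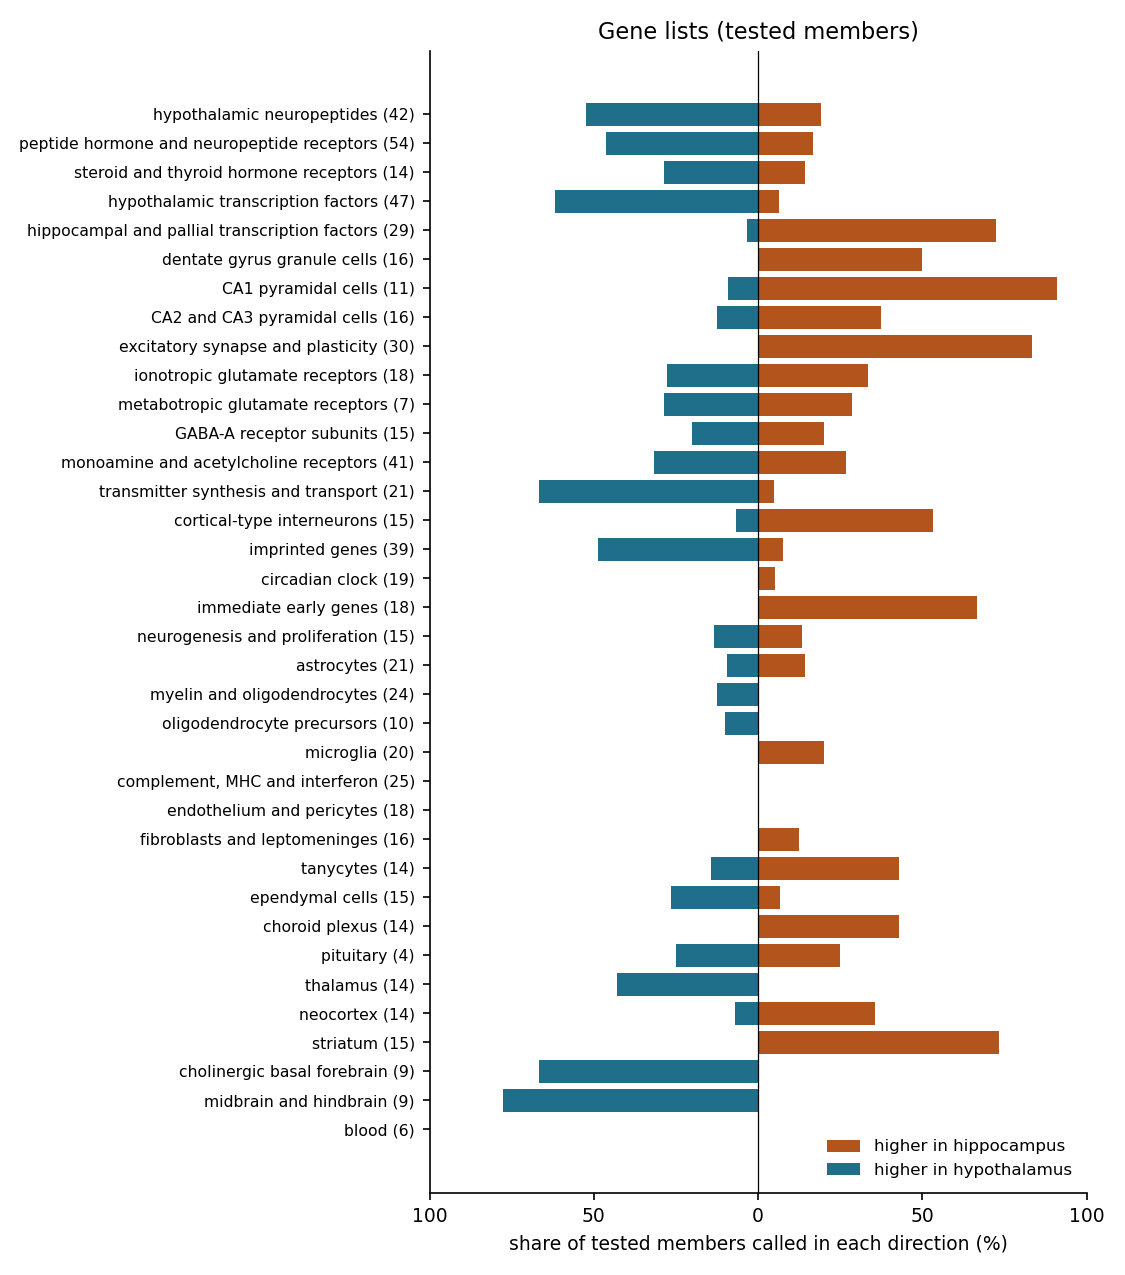
Bars give, for each of 36 gene lists, the percentage of tested members called higher in hippocampus (right) and higher in hypothalamus (left), with the number of tested members in parentheses. The longest bar to the right belongs to CA1 pyramidal cells, with 10 of 11 called. The bar of midbrain and hindbrain rests on the 9 members that passed the count filter, of which 7 were called, and 9 of its 20 members were called without a filter.

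Genes of the excitatory synapse held abundant transcripts that set hippocampus apart. Of 30 genes of the excitatory synapse and its plasticity, 25 were called higher in hippocampus and 5 not called, and the median log2 fold change was 1.30. Nrgn encodes neurogranin, which binds calmodulin in dendrites (NCBI gene 64011, chr9:37544493-37552745). It had 1636, 1803 and 1119.6 CPM in hippocampus and 196, 219.6 and 134 CPM in hypothalamus, and library 6 was lowest in each region. Its log2 fold change was 3.05 ± 0.23 (adjusted p = 0.00012), and at 1206 FPKM it was the most abundant of the genes called with a fold change over 4 toward hippocampus. Camk2a, the kinase subunit that is abundant at spine synapses, had 4242, 4313 and 3366 CPM against 543, 1042 and 552 CPM (2.48 ± 0.26, adjusted p = 0.000363). Ddn, which encodes the dendritic protein dendrin, had 1451, 1506 and 1269 CPM against 38.8, 253 and 43.9 CPM (3.66 ± 0.72), and Itpka, an inositol kinase of spines, had 159.7, 184 and 129.5 CPM against 4.62, 24.7 and 3.46 CPM (3.86 ± 0.64). In Camk2a, Ddn and Itpka, hypothalamic library 5 was the highest of its group. Outside the list, the calcium sensor gene Hpca had a mean of 566 FPKM in hippocampus and 116 FPKM in hypothalamus (2.37 ± 0.21, adjusted p = 0.000191), and the kinase gene Ptk2b 196 FPKM and 31.1 FPKM (2.74 ± 0.40).

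Immediate early genes, whose transcription follows neuronal activity within minutes, were called higher in hippocampus for 12 of 18 members and not called for 6 (median 1.49). Egr1 had 211, 196 and 163 CPM in hippocampus and 41.9, 60.3 and 42.5 CPM in hypothalamus (1.98 ± 0.16, adjusted p = 0.000143). Egr3 had 197, 149 and 122 CPM and 6.33, 17.9 and 5.08 CPM (3.99 ± 0.44), and Arc, whose RNA is carried to synapses, 125, 134 and 122 CPM and 22.2, 38.7 and 25.7 CPM (2.14 ± 0.18). Hypothalamic library 5 again had the highest level of its group in Egr1, Egr3 and Arc. Fos, the best-known member, was not called, with 8.30, 6.67 and 8.85 CPM and 5.55, 9.27 and 8.99 CPM (adjusted p = 0.992).

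Markers of the hippocampal cell fields differed in how far they separated the regions. Of 11 CA1 pyramidal cell genes, 10 were called higher in hippocampus and 1 higher in hypothalamus (median 1.46). Fibcd1, a defining gene of CA1, had 61.6, 75.7 and 88.3 CPM in hippocampus and 29.6, 32.6 and 19.7 CPM in hypothalamus (1.46 ± 0.20, adjusted p = 0.001). Mpped1 had the highest level of this list (65.7 FPKM against 12.9 FPKM, 2.44 ± 0.17). Of 16 dentate granule cell genes, 8 were called higher in hippocampus and 8 not called (median 0.69). C1ql3, a secreted synaptic protein, had 144, 186 and 131 CPM and 39.3, 56.7 and 49.6 CPM (1.66 ± 0.17, adjusted p = 0.000293), while Calb1, the most abundant gene of the list, was not called (-0.22 ± 0.08). Of 16 genes of CA2 and CA3, 6 were called higher in hippocampus and 2 higher in hypothalamus (median 0.20). Rgs14, which defines CA2, had 51.4, 53.1 and 44.7 CPM and 4.38, 12.6 and 5.30 CPM (2.75 ± 0.34, adjusted p = 0.000687). Amigo2, an adhesion molecule also listed for CA2, was higher in hypothalamus (-1.42 ± 0.17, adjusted p = 0.000616).

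Genes of transmitter synthesis and transport were mostly higher in hypothalamus, with 14 of 21 tested called in that direction and 1 in the other (median -1.80). The exception was Slc17a7, the vesicular glutamate transporter of cortical neurons, which had 1466, 1534 and 1131 CPM in hippocampus and 80.5, 197 and 80.5 CPM in hypothalamus (3.53 ± 0.37, adjusted p = 0.000361). Slc17a6, the transporter that serves most glutamate neurons below the cortex, had 80.7, 21.3 and 145 CPM and 373, 342 and 380.1 CPM (-2.15 ± 0.55, adjusted p = 0.017). Its hippocampal libraries spread widely, with library 5 lowest and library 6 highest. The call of Slc17a6 was lost without hippocampal library 4 (-2.14, adjusted p = 0.0647) and without hypothalamic library 6 (-2.12, adjusted p = 0.0501). It was also lost with edgeR's glmTreat, which tested against a fold change of 1.5 (adjusted p = 0.0818). Gad1, an enzyme of GABA synthesis, was not called (-0.07 ± 0.05, adjusted p = 0.344), while the GABA transporter gene Slc6a11 had a mean of 62.1 FPKM in hippocampus and 222 FPKM in hypothalamus (-1.76 ± 0.28). Among the cholinergic genes, Slc18a3 had a log2 fold change of -2.01 ± 0.22 and Chat of -1.25 ± 0.19.

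Several genes of dopamine neurons were higher in hypothalamus. Slc6a3, the dopamine transporter, had 0.517, 0.243 and 0.0388 CPM in hippocampus and 84.4, 55.3 and 114 CPM in hypothalamus (-8.30 ± 0.48, adjusted p = 7.43e-05). Th, the rate-limiting enzyme of dopamine synthesis, had 2.31, 2.67 and 1.98 CPM and 65.2, 43.9 and 94.4 CPM (-4.87 ± 0.32, adjusted p = 9.2e-05). En1, a factor of midbrain dopamine neurons, had 0.199, 0.0809 and 0.427 CPM and 19.6, 4.80 and 17.5 CPM (-5.85 ± 0.73, adjusted p = 0.000702). In all 3 genes hypothalamic library 5 was lowest, and the regions did not overlap. These genes belong in part to a list of 20 midbrain and hindbrain genes, of which 9 were tested and 7 called higher in hypothalamus. Leaving out 1 library gave 4 to 11 calls, the last among 11 tested without hypothalamic library 5. GlmTreat called 3 of 9, and limma on log2(FPKM + 1) with its filter tested and called 3. The list summed to 5.80, 3.92 and 6.33 CPM in hippocampus and 208, 66.6 and 223 CPM in hypothalamus, with Slc6a3 as its most abundant gene. Tph2, the enzyme of serotonin synthesis, had 0.954, 1.09 and 0.970 CPM and 43.3, 0.261 and 38.95 CPM (-4.77 ± 1.32, adjusted p = 0.0232). The Tph2 call was lost without any 1 of 5 libraries, at adjusted p-values from 0.0563 to 0.0828, and kept without hypothalamic library 5. It was also lost with glmTreat (adjusted p = 0.0851) and with limma on log2(FPKM + 1) without a filter (adjusted p = 0.134). The part of midbrain tissue in the hypothalamic levels of dopamine and serotonin genes was not tested.

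The Th promoter is shown with the promoter of Nrgn as an example from each direction. Both lie on the minus strand of GRCm38.p6 (Th chr7:142899946-142900245, Nrgn chr9:37552696-37552995). Capitals mark TGACGTCA, the cyclic AMP response element, in Th and CAGATG, read on the other strand as CATCTG, in Nrgn.
Th: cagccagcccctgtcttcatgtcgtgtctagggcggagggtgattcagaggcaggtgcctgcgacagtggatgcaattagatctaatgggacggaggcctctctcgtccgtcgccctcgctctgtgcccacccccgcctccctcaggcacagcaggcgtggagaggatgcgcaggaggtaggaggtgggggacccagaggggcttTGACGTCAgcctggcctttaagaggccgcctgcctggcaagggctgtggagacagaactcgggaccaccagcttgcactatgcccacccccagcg
Nrgn: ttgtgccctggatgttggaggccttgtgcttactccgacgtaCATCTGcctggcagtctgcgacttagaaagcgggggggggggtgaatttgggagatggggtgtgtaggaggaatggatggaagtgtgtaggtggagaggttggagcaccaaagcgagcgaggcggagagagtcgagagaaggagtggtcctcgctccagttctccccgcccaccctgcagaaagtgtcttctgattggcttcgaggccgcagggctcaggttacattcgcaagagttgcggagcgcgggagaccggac
TGACGTCA stood in 1.79% of all windows, in 1.67% of those of genes called higher in hippocampus and in 2.17% of those of genes called higher in hypothalamus. The 5 promoters were chosen after motifs had been searched. Also searched on both strands were further motifs, given with the share of all windows and then of windows of genes called higher in hippocampus and in hypothalamus. They were TGACG, which lies within TGACGTCA (20.8%, 23.4% and 21.1%), ATGCAAAT (1.74%, 1.74% and 1.37%), TATAAA (13.6%, 9.60% and 9.41%), TATAAAA, which contains it (5.48%, 3.48% and 2.89%), CCAAT (37.4%, 33.5% and 36.1%), GGGCGG (35.7%, 55.1% and 52.7%), GCGGGGGCG (2.91%, 5.50% and 4.58%), CACGTG (7.15%, 7.86% and 7.48%, first looked for with 2 more bases on each side) and CTGTCA (19.2%, 18.3% and 16.5%). No difference between these shares was tested. The windows of the whole table were not limited to genes tested here, whereas genes called had passed the count filter. The share of all windows is thus no matched background for the genes called. Except for TGACG within TGACGTCA, these are not capitalised in the promoters.

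Glutamate and GABA receptors were divided by subunit. Of 18 ionotropic glutamate receptor genes, 6 were called higher in hippocampus and 5 higher in hypothalamus (median 0.24). The NMDA receptor subunit gene Grin2a had 39.5, 41.02 and 34.3 CPM in hippocampus and 12.9, 13.2 and 12.2 CPM in hypothalamus (1.58 ± 0.08, adjusted p = 7.43e-05), and Grin2b had a log2 fold change of 1.36 ± 0.17. Grin2d, another NMDA receptor subunit, had 24.6, 17.4 and 34.6 CPM and 77.9, 71.8 and 74.2 CPM (-1.55 ± 0.21, adjusted p = 0.001), and the obligatory subunit gene Grin1 was not called (0.41 ± 0.05). Subunits of 1 receptor family thus lay on opposite sides. Metabotropic receptors had 2 genes called in each direction of 7 tested (median -0.13), with Grm2 at 0.75 ± 0.11 and Grm4 at -0.89 ± 0.19. Of 15 GABA-A receptor subunits, 3 were called in each direction (median -0.23). Gabra5, a subunit abundant in hippocampus, had 109, 128 and 113 CPM and 53.1, 57.1 and 49.9 CPM (1.13 ± 0.08), whereas the theta and epsilon subunit genes had mean levels in hippocampus and hypothalamus of 2.15 and 46.1 CPM for Gabrq (-4.41 ± 0.31, adjusted p = 9.77e-05) and of 0.446 and 10.5 CPM for Gabre (-4.53 ± 0.42).

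Receptors of monoamines and acetylcholine were divided as well, with 11 of 41 called higher in hippocampus and 13 higher in hypothalamus (median -0.19). The muscarinic receptor gene Chrm1 had 239, 252 and 188 CPM in hippocampus and 12.7, 34.3 and 12.9 CPM in hypothalamus (3.50 ± 0.38, adjusted p = 0.000392). The nicotinic subunit genes Chrna6, Chrna3 and Chrnb4 had log2 fold changes of -3.70 ± 0.57, -3.16 ± 0.59 and -2.99 ± 0.17. In hypothalamus, Chrna6 had 14.3, 7.3 and 15.04 CPM, with library 5 lowest, as in the midbrain and hindbrain sum. In hippocampus, Chrna3 had 0.954, 0.364 and 3.92 CPM, with library 5 lowest and library 6 highest, as in the thalamic sum given below. The serotonin receptor gene Htr2c had a mean of 10.8 FPKM in hippocampus and 30.96 FPKM in hypothalamus (-1.44 ± 0.27).

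Imprinted genes, which are expressed from 1 parental copy, were called in both directions. Of 39 tested, 19 were called higher in hypothalamus, 3 higher in hippocampus and 17 not called (median -0.52). Dlk1, a Notch-related membrane protein, had 18.6, 9.35 and 19.9 CPM in hippocampus and 211, 208 and 282 CPM in hypothalamus (-3.87 ± 0.27, adjusted p = 9.97e-05). Asb4 had 1.11, 0.728 and 1.05 CPM and 14.1, 12.8 and 17.3 CPM (-3.93 ± 0.19), and Calcr, described with the receptors, is also imprinted in brain. Among abundant members, Nap1l5 had a mean of 170.2 FPKM in hippocampus and 452 FPKM in hypothalamus (-1.33 ± 0.08) and Nnat 164 FPKM and 330.4 FPKM (-0.95 ± 0.10). Gnas, the most abundant, was not called (-0.44 ± 0.05). Dio3, which inactivates thyroid hormone, was higher in hippocampus, at 0.874, 2.75 and 2.68 CPM against 0.320, 0.186 and 0.226 CPM (3.08 ± 0.52, adjusted p = 0.00291). The summed level of the list was 5813, 5622 and 6131 CPM in hippocampus and 9017, 8616 and 9434 CPM in hypothalamus. Of 19 circadian clock genes, 1 (5.26%, against 9.09% of all genes tested) was called higher in hippocampus and 18 were not called (median 0.22). The called gene was Npas2 (1.49 ± 0.15, adjusted p = 0.000307). The clock gene Arntl had a log2 fold change of 0.48 ± 0.09 and was not called (adjusted p = 0.00356).

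Glial and vascular genes were read by further lists. Over all genes tested, 9.09% were called higher in hippocampus and 8.32% higher in hypothalamus. A list share near these is no result about the cell type. Of 21 astrocyte genes, 3 (14.3%) were called higher in hippocampus and 2 (9.52%) higher in hypothalamus (median -0.21). Agt, which encodes angiotensinogen and is made by astrocytes, had 56.8, 26.6 and 113 CPM in hippocampus and 326, 303 and 325 CPM in hypothalamus (-2.28 ± 0.44, adjusted p = 0.00493). Hippocampal library 5 was lowest and library 6 highest for Agt, and the regions did not overlap. Gfap was not called (0.44 ± 0.10, adjusted p = 0.00962), nor was Aqp4 (-0.44 ± 0.13, adjusted p = 0.0312), while the glutamate transporter gene Slc1a2 was higher in hippocampus (0.90 ± 0.09). The summed level of the astrocyte list was 1.09 times as high in hippocampus as in hypothalamus in CPM and 0.903 times as high in FPKM. Of 24 genes of myelin and oligodendrocytes, 3 (12.5%) were called higher in hypothalamus and 21 not called (median -0.38). Leaving out 1 library gave 1 to 6 calls, scaling by total counts gave 5, and glmTreat gave 0. Mbp, the myelin basic protein gene and the most abundant of these, had 3747, 2879 and 4052 CPM and 3752, 4204 and 4442 CPM and was not called (-0.22 ± 0.13). The list summed to 8848, 6621 and 9656 CPM in hippocampus and 9814, 10213 and 11042 CPM in hypothalamus, with hippocampal library 5 lowest. Of 10 genes of oligodendrocyte precursors, 1 was called, Lhfpl3 toward hypothalamus (-1.45 ± 0.21, adjusted p = 0.00146), and the list's median was -0.20.

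Microglial genes were called higher in hippocampus for 4 of 20 and not called for 16 (median 0.26). The count was 2 with total counts and with limma on log2(FPKM + 0.1), and 0 with limma on log2(FPKM + 1) and with glmTreat. The purine receptor gene P2ry12 had 38.4, 39.9 and 31.2 CPM in hippocampus and 21.3, 23.3 and 23.9 CPM in hypothalamus (0.68 ± 0.10, adjusted p = 0.00162), below the fold limit in both limma fits on log2(FPKM + 1) (0.5541), and Tmem119 was not called (0.23 ± 0.08). Of 25 genes of complement, antigen presentation and interferon response, 0 were called by edgeR or DESeq2 and 4 had an unadjusted p-value under 0.05, and the list's median was 0.0016, or -0.0863 with libraries scaled by total counts. With that scaling edgeR called 1 toward hypothalamus, and in a single fit of all 12 libraries 2. Of 18 genes of endothelium and pericytes, 0 were called by either tool and 4 had an unadjusted p-value under 0.05 (median 0.0884). Of 6 genes of blood, 0 were called by either tool and 2 had an unadjusted p-value under 0.05 (median 0.23). Over all genes tested, 49.8% had an unadjusted p-value under 0.05 in edgeR's test, so these counts are no sign of a difference. Leaving out 1 library gave up to 4 calls toward hippocampus and up to 2 toward hypothalamus in the list of complement, antigen presentation and interferon response, and up to 1 call in each of the lists of vessels and blood. Of 16 genes of fibroblasts and leptomeninges, 2 (12.5%) were called higher in hippocampus (median 0.54). With the mouse number as a block 0 were called, and leaving out 1 library gave 0 to 11, the last without hypothalamic library 4. Their summed level was 934, 1162 and 1191 CPM in hippocampus and 1531, 741 and 536 CPM in hypothalamus, where library 4 was highest, and Ptgds was the most abundant gene. Among 15 genes of neurogenesis and proliferation tested, 2 (13.3%) were called in each direction (median -0.0133). Dcx, which marks young neurons, was not called, with 27.5, 25.6 and 23.5 CPM in hippocampus and 21.7, 21.1 and 23.5 CPM in hypothalamus (0.21 ± 0.08, adjusted p = 0.0768).

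Markers of tissue next to the dissected regions varied between libraries of 1 region. The list of 14 choroid plexus genes, all tested, had 6 called higher in hippocampus and 8 not called (median 2.10). DESeq2 called 3, the fit with the mouse number as a block called 3, and leaving out 1 library gave 1 to 12. It summed to 1756, 2929 and 4681 CPM in hippocampus and 775, 1638 and 397 CPM in hypothalamus. Its most abundant gene was Ttr, the transthyretin carrier, with 868, 1664 and 2596 CPM and 243, 776 and 17.6 CPM. Ttr was not called (2.31 ± 1.05, adjusted p = 0.117), but it was called without hypothalamic library 5 (3.71, adjusted p = 0.0357). Aqp1, a water channel of this epithelium, was called (2.42 ± 0.49, adjusted p = 0.00605). The highest and lowest hippocampal sums differed 2.67-fold and the hypothalamic ones 4.13-fold. No defining marker was at 0, and the part of choroid plexus in the difference between regions was not tested.

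Striatal genes were higher in hippocampus for 11 of 15 and not called for 4 (median 1.59). The list summed to 942, 1852 and 1383 CPM in hippocampus and 466, 499 and 446 CPM in hypothalamus, with Penk as its most abundant gene. Adora2a, a defining gene of striatal neurons that project to the pallidum, had 13.03, 34.02 and 22.8 CPM and 2.03, 2.35 and 1.32 CPM (3.61 ± 0.39, adjusted p = 0.000372), and the dopamine receptor gene Drd1 had 16.2, 41.1 and 27.7 CPM and 4.09, 5.996 and 4.25 CPM (2.57 ± 0.34). Hippocampal library 5 was highest in both genes and in the sum. Ppp1r1b, which encodes the phosphatase inhibitor DARPP-32 and is also listed for tanycytes, had 198, 388 and 284 CPM and 62.7, 66.4 and 53.7 CPM (2.25 ± 0.23, adjusted p = 0.000312). Among 14 neocortical genes, 5 were called higher in hippocampus and 1 higher in hypothalamus (median 0.24). They summed to 1600.0, 1634 and 1370.4 CPM and 1013, 975 and 1019 CPM, with Sulf2 as the most abundant, and Cux2, a defining gene of upper layers, was not called (0.46 ± 0.12). Hippocampal neurons express several of these genes too, and the part of striatal or neocortical tissue in the hippocampal levels was not tested.

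Of 14 thalamic genes, 6 were called higher in hypothalamus and 8 not called (median -1.15). DESeq2 called 4, and leaving out 1 library gave 3 to 11. They summed to 797, 280.3 and 1158 CPM in hippocampus and 1406, 1776 and 1506 CPM in hypothalamus, and Prkcd, which was not called (adjusted p = 0.375), was the most abundant. Gbx2, a factor that defines thalamic neurons, had 2.03, 0.243 and 5.70 CPM and 18.04, 22.5 and 20.6 CPM (-2.93 ± 0.64, adjusted p = 0.00908). Hippocampal library 5 was lowest and library 6 highest in Gbx2 and in the sum. Slc17a6, Agt, Calb2, Grin2d, Grm4, Chrna3 and Baiap3, among others, had the same order. Of 9 tested genes of cholinergic basal forebrain, 6 were called higher in hypothalamus (median -1.25), and the list of 10 summed to 29.1, 25.2 and 37.1 CPM and 65.3, 83.02 and 80.3 CPM. The part of thalamic or basal forebrain tissue in these differences was not tested. Of 14 pituitary genes, 13 had reads and 4 were tested, 1 of them called in each direction (median 0.26). The call toward hippocampus was absent with DESeq2, with total counts, without a filter, with the block and without any 1 of 5 libraries, and the fit without a filter called 3 toward hypothalamus. The list summed to 2.42, 2.83 and 4.23 CPM in hippocampus and 14.2, 11.4 and 12.7 CPM in hypothalamus. The defining hormone gene Gh had 1, 11 and 2 counts in the hypothalamic libraries and Prl 0, 2 and 0.

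Cells that line the ventricles were read by 2 lists. Of 14 tanycyte genes tested, 6 were called higher in hippocampus and 2 higher in hypothalamus (median 0.24), although tanycytes are cells of the ventricle wall in the hypothalamus. Crym, a thyroid hormone-binding protein on this list that cortical neurons also express, had 54.4, 93.04 and 74.5 CPM in hippocampus and 1.60, 5.62 and 2.07 CPM in hypothalamus (4.58 ± 0.40, adjusted p = 0.000184). Gpr50, an orphan receptor of tanycytes, had 0.675, 0.405 and 1.05 CPM and 4.80, 6.52 and 6.28 CPM (-3.03 ± 0.30, adjusted p = 0.000268), and the defining factor Rax had too few counts to be tested. Of 15 ependymal genes, 1 (6.67%) was called higher in hippocampus and 4 (26.7%) higher in hypothalamus (median -0.44). The calls toward hypothalamus were 0 with glmTreat, 2 with the mouse number as a block and 1 to 4 when 1 library was left out.

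**Figure D4:**
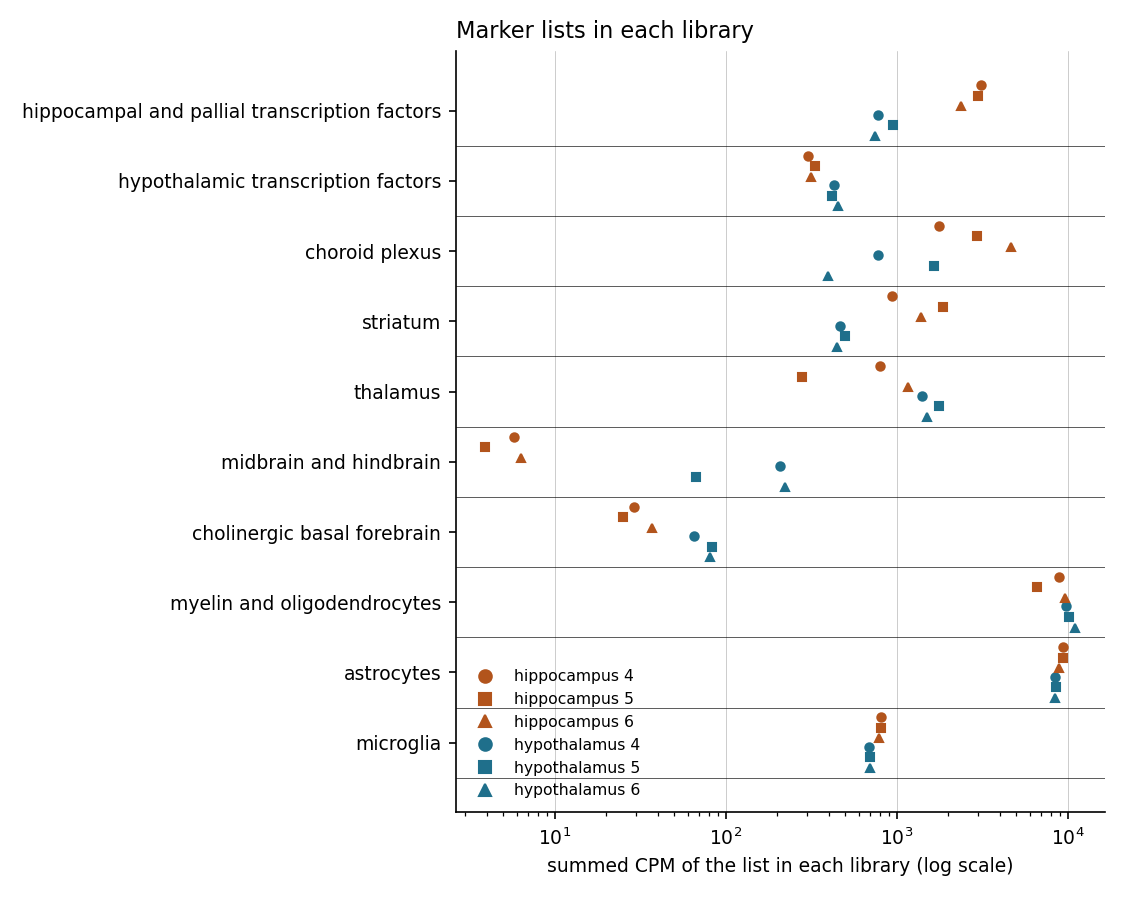
Points give the summed CPM of a list in each library on a log scale, coloured by region and shaped by mouse number. Choroid plexus sums spread between the libraries of both regions, striatal and thalamic sums between hippocampal libraries, midbrain and hindbrain sums between hypothalamic libraries, and astrocyte and microglial sums lie close together.

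The regional difference was also measured at 2 months in 6 libraries of other mice, numbered 1 to 3, which shared no library with the older mice. At 2 months, 2720 of 14963 genes (18.2%) were called by the same rule. Of 14812 genes tested at both ages, 2079 (14.0%) were called in the same direction at both, which is 79.8% of the calls at 15 months and 76.4% of those at 2 months. They comprised 1131 genes higher in hippocampus and 948 higher in hypothalamus. No gene was called in opposite directions. Of 2572 genes called at 15 months and tested at 2 months, 2557 had the same sign, and 15 had the other sign. Among 395 genes with a fold change over 4 at 15 months that were tested at 2 months, 382 were called in the same direction and 326 also passed a fold change of 4. Hcrt had a log2 fold change of -6.33 at 2 months and -8.46 at 15 months, Oxt -5.68 and -6.27, and Nrgn 3.31 and 3.05.

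Among the 2572 genes called at 15 months and tested at 2 months, 493 were not called at 2 months. Their median size of the log2 fold change was 0.75, against 1.13 for the genes called at both ages. A gene that passes at 1 age and not at the other is not shown to differ between ages, so the interaction of region and age was tested over all 12 mRNA libraries. In edgeR's test it was called for 0 of 15237 genes (0%), with 653 genes at an unadjusted p-value under 0.05, and DESeq2 called 3. Hcrt, with the largest fold change toward hypothalamus at 15 months among genes with a mean of at least 5 CPM, had an unadjusted interaction p-value of 0.00463 and an adjusted one of 0.961. The mice came from 2 suppliers, and whether source and age can be told apart is not stated.

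**Figure D5:**
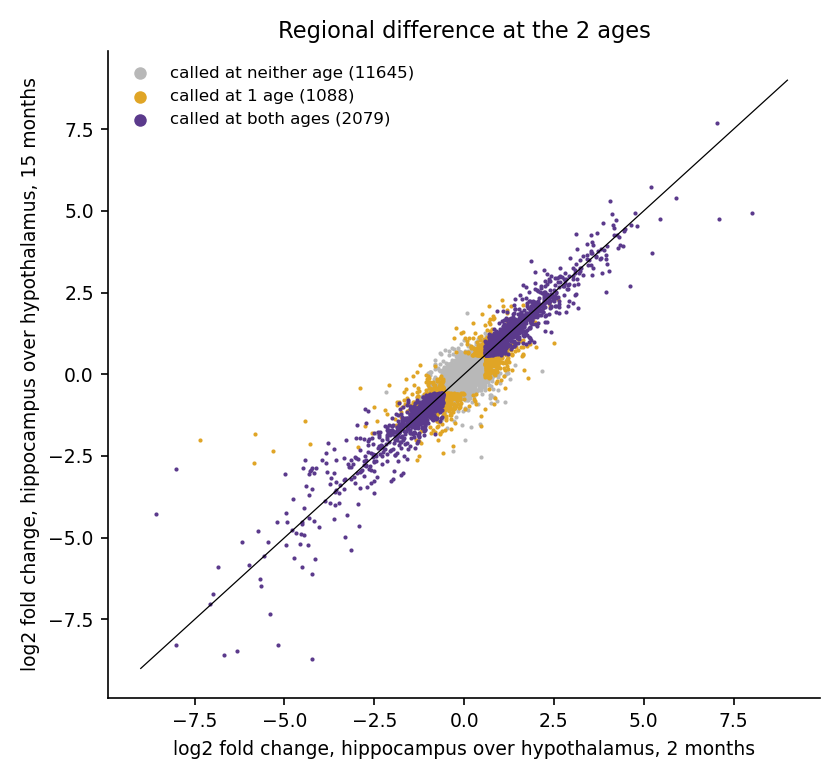
Each point is a gene tested at both ages, with the log2 fold change of hippocampus over hypothalamus at 2 months on the horizontal and at 15 months on the vertical axis. The 2079 genes called at both ages lie on both sides of 0 along the line of equal values.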

How the data were processed

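Expected counts per gene were deposited by the authors for each mRNA library, after filtering of reads with SOAPnuke, mapping with HISAT to mouse mm10 and quantification with Bowtie2 and RSEM, and are not normalised. FPKM values from RSEM were also deposited by the authors. Library totals ranged from 25630854 to 27157808, and intervals and floors cover counting error only. Expected counts of the 6 libraries were rounded, filtered with filterByExpr, normalised with TMM and compared by the quasi-likelihood test of edgeR 4.0.16 in R 4.3.3. The same fit was made for 6 libraries at 2 months, and the interaction of region and age was tested over 12. Tests were tried on simulated data. Standard errors are the size of the log2 fold change divided by the square root of F. An exact two-sided permutation test of 3 against 3 libraries has a smallest p of 0.10, so single genes were tested only in fits across all genes. Alternatives used DESeq2 1.42.0, limma 3.58.1, other scalings and filters, and each library left out in turn.

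The labels give the same mouse numbers in both regions, so same-numbered libraries were taken to come from the same mouse. Deviations from the region means correlated across genes at -0.11, 0.04 and 0.01 for mice 4, 5 and 6. Between libraries of different numbers they correlated at -0.10 to 0.13. With 3 libraries per region, these values cannot decide whether the libraries are paired. The fits were made without a block, which is an alternative.

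The members, the 36 gene lists and the rule for naming genes were chosen with earlier results of these data known. Named are, per direction, the 15 called genes with the largest fold change whose regions do not overlap and whose mean is at least 5 CPM, the 10 with the highest FPKM among those with a fold change over 4, up to 3 genes per list by level and by change with the defining genes, any gene called for the interaction, and the 5 genes with the widest range in each region. Some genes that meet this rule are not reported here. The defining genes, the number of genes per list, the promoters and the further motifs were chosen after values were seen. Calculations and figures used Python 3.11.15 with pandas 2.3.3, numpy 2.4.6 and scipy 1.17.1.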

Additional observations from a re-analysis of the deposited data

How the results depend on the processing

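Of 246 genes eligible for naming, 184 were called, and 131 of these were called in the same direction under every alternative run on single genes. None of the 184 changed direction. The counts of genes higher in hippocampus and in hypothalamus changed most with the rule itself, to 3022 and 2975 without a limit on the fold change, to 221 and 190 at a fold change over 4, and to 759 and 544 when edgeR's glmTreat tested against a fold change of 1.5. Limma on log2(FPKM + 1) without a filter called 904 genes higher in hippocampus and 964 higher in hypothalamus. Leaving out 1 library gave 1232 to 1453 genes higher in hippocampus, 1004 to 1396 higher in hypothalamus and 1878 to 2141 called in the same direction at both ages. At a fold change over 4 at both ages, 326 genes were shared. DESeq2 called 3 genes for the interaction of region and age, for which edgeR called 0. Hypothalamus had more calls with total counts (1156 and 1561) and in each limma fit on FPKM. Scaling by total counts moved the median of all genes from -0.0029 to -0.0894 and the share of calls higher in hippocampus from 52.2% to 42.5%. With the mouse number as a replicate block for pairing, 1296 and 1189 genes were called, among them 2442 of the 2605 in the same direction. The block ended the calls of 8 eligible genes, Ccdc153, Enpp2, Hydin, Igfbp2, Kcnj13, Lum, Oacyl and Zic4, and no other call among them.

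Of 62 eligible genes not called, 11 with log2 fold changes from -0.05 to 0.22 had the other sign under an alternative. With total counts, B2m was at -0.077, Cldn5 -0.0059, Col1a1 -0.012, Esrra -0.0801, Fos -0.082, Ly6c1 -0.075 and Pcp4 -0.077. With limma on log2(FPKM + 0.1), on log2(FPKM + 1) and on the latter without a filter, B2m was at -0.051, -0.051 and -0.051, Cldn5 at -0.0008, -0.0005 and -0.0005, Esrra at -0.077, -0.074 and -0.074, Fos at -0.052, -0.046 and -0.046, Ly6c1 at -0.058, -0.057 and -0.057, Pcp4 at -0.0497 in each, and Ptgds at 0.024, 0.024 and 0.024. Ptgds was at 0.10 with the replicate block. Leaving out 1 library gave B2m from -0.085 to 0.16, Col1a1 from -0.20 to 0.54, Ctss from -0.067 to 0.0085, Dlx1 from -0.085 to 0.50, Esrra from -0.049 to 0.054, Fos from -0.20 to 0.13, Lhb from -0.23 to 0.54, Ly6c1 from -0.038 to 0.066, Pcp4 from -0.10 to 0.18 and Ptgds from -0.33 to 0.51. Summed levels of lists kept their ratio within the spread between libraries for 21 lists in FPKM against CPM and moved beyond it for 14, and that of astrocytes was reversed (log2 ratio from 0.12 to -0.15). The log2 ratio also changed sign from CPM to FPKM for CA2 and CA3 (0.364 to -0.0505), metabotropic receptors (0.0397 to -0.0733), monoamine and acetylcholine receptors (0.0985 to -0.0087) and fibroblasts (0.228 to -0.0067, within the spread). The cause of these changes was not tested.

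Counts of calls in gene lists also changed. Leaving out 1 library gave, toward hippocampus, 1 to 12 calls in the choroid plexus list (6 reported), 0 to 11 in fibroblasts (2), 0 to 4 in complement and interferon (0), 7 to 11 in monoamine receptors (11), 2 to 5 in imprinted genes (3), 2 to 4 in steroid receptors (2), 1 to 4 in hypothalamic factors (3), and 0 to 1 in pituitary (1), endothelium (0) and blood (0). Toward hypothalamus it gave 4 to 11 in midbrain and hindbrain (7), 3 to 11 in thalamus (6), 1 to 6 in myelin (3), 1 to 4 in ependymal cells (4), 1 to 3 in tanycytes (2), 1 to 2 in metabotropic receptors (2), neurogenesis (2) and pituitary (1), 0 to 2 in complement and interferon (0), and 0 to 1 in CA1 (1) and the clock (0). In the other lists and directions the counts stayed within a factor of 1.5 of those reported. The following counts changed by more than that under other alternatives. GlmTreat called, toward hippocampus, 0 in microglia (4), hypothalamic factors (3), metabotropic receptors (2), fibroblasts (2) and pituitary (1), 1 in choroid plexus (6), GABA-A (3), imprinted genes (3), steroid receptors (2) and neurogenesis (2), 3 in CA2 and CA3 (6), 5 in dentate granule cells (8) and 6 in monoamine receptors (11). Toward hypothalamus it called 0 in ependymal cells (4), myelin (3), metabotropic receptors (2), neurogenesis (2), pallial factors (1) and CA1 (1), 1 in tanycytes (2), 2 in steroid receptors (4), 3 in midbrain and hindbrain (7), thalamus (6) and cholinergic basal forebrain (6), and 8 in monoamine receptors (13). Limma on log2(FPKM + 0.1) called 2 in microglia, 1 in imprinted genes and 1 in neurogenesis toward hippocampus, and 5 in myelin toward hypothalamus. Limma on log2(FPKM + 1) called 0 in microglia, 1 in metabotropic receptors, 1 in imprinted genes, 1 in neurogenesis and 7 in monoamine receptors toward hippocampus, and 10 in thalamus, 5 in myelin, 1 in tanycytes, 1 in neurogenesis and 1 in the clock toward hypothalamus. Both tested 3 genes of midbrain and hindbrain and called 3. Without a filter the latter called 0 in fibroblasts and changed the same counts except those of imprinted genes, thalamus, the clock and midbrain and hindbrain. Total counts gave 2 in microglia, and toward hypothalamus 5 in myelin and 1 in complement and interferon. The single fit of all 12 libraries gave 10 in thalamus, and toward hypothalamus 2 in complement and interferon, 2 in pituitary and 1 in the clock. The block gave 3 in choroid plexus, 0 in fibroblasts and 2 in ependymal cells toward hypothalamus, DESeq2 3 in choroid plexus, a mean CPM of at least 1 gave 1 in neurogenesis toward hypothalamus, and no filter gave 3 in pituitary toward hypothalamus. The pituitary call toward hippocampus remained only with DESeq2 size factors and without hypothalamic library 6. The cause of the changes in these counts was not tested. Depth limits genes near the floor of 3 counts over a region, for which ratios are bounds or have wide intervals.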

Other observations

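Several genes with the largest fold changes belong to none of the lists. Toward hippocampus, Igfn1, which encodes an immunoglobulin-domain protein first described in muscle, had 23.7, 22.1 and 14.9 CPM against 0.356, 0.670 and 0.113 CPM (5.72 ± 0.38, adjusted p = 9.37e-05). The potassium channel gene Kcnh3 had 148, 170.2 and 111 CPM against 3.73, 13.6 and 4.89 CPM (4.28 ± 0.43, adjusted p = 0.000296), and Ntn5, a netrin relative, had a log2 fold change of 5.40 ± 0.45. Toward hypothalamus, Irs4, a substrate of insulin signalling, had 2.90, 0.647 and 1.55 CPM against 44.8, 50.5 and 58.2 CPM (-4.90 ± 0.33, adjusted p = 9.49e-05). Arhgap36 had a log2 fold change of -4.68 ± 0.38. Among abundant genes, Zcchc12 had a mean of 25.7 FPKM in hippocampus and 125 FPKM in hypothalamus (-2.21 ± 0.17) and Baiap3, which acts in the release of dense-core vesicles, 5.64 FPKM and 68.8 FPKM (-3.53 ± 0.41).

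The following were chosen after their values were seen. Of 528 genes tested on the X chromosome, 97 (18.4%) were called higher in hypothalamus and 30 (5.68%) higher in hippocampus, against 8.32% and 9.09% of all genes tested. Irs4, Arhgap36, Gabre, Gabrq and Zcchc12 are among the former. At 2 months the counts on this chromosome were 95 and 37 of 529. On chromosome 14, 65 of 534 genes (12.2%) were called higher in hypothalamus and 37 (6.93%) higher in hippocampus. Chromosomes 15 and 16 had the largest shares of genes called higher in hippocampus, with 74 (12.5%) and 48 (8.14%) of 590 genes on chromosome 15 and 56 (12.2%) and 28 (6.10%) of 459 on chromosome 16 called higher in hippocampus and in hypothalamus. Among genes called with a fold change over 4, 31 pairs lay within 100 kb of each other, and 25 of these pairs had the same direction. They include the nicotinic receptor genes Chrna3 and Chrnb4, 1.59 kb apart, and Oxt with Avp. Hcrt and the potassium channel gene Kcnh4 lie 1.58 kb apart and had opposite directions, with log2 fold changes of -8.46 and 3.24. The 31 pairs include overlapping genes, such as Sec1 with Ntn5, and genes counted in several pairs, such as Neurod2 with Ppp1r1b and with Tcap. The number and directions of such pairs among all genes tested were not determined, so these counts are a description only.

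Among genes eligible for naming, the widest range of CPM between hippocampal libraries was that of Ttr, from 868 to 2596 CPM, followed by Mbp, Camk2a and Enpp2. Between hypothalamic libraries it was again Ttr, from 17.6 to 776 CPM, followed by Ptgds, Mbp, Camk2a and Enpp2. Enpp2, which encodes autotaxin and is abundant in choroid plexus, had 700.4, 983 and 1612 CPM in hippocampus and 429.7, 667 and 308 CPM in hypothalamus (1.23 ± 0.35, adjusted p = 0.0271). Its call was lost without hippocampal library 6 (0.86, adjusted p = 0.061), without hypothalamic library 4 (1.17, adjusted p = 0.082) or 6 (adjusted p = 0.0858), and with the mouse number as a block (adjusted p = 0.0522). That call was also lost with limma on log2(FPKM + 1) without a filter (adjusted p = 0.0609) and with glmTreat (adjusted p = 0.21).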
